A study of Mus musculus with 4 samples.

Results

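The regions described here were 1866 tiles of 500 bp, away from gene ends, that were more open in IL-10- regulatory T (Treg) cells than in IL-10+ Treg cells of the mouse cecum. They were chosen by their cecum values from a grid of 4737669 tiles on chromosomes 1 to 19 that lay more than 1 kb from either end of every protein-coding gene. A tile was kept if it held 15 or more ATAC fragments in cecum cells labelled IL10- Treg and if its level there was at least 3 times that in cells labelled IL10+ Treg. Levels were fragments per 1000000 fragments of the label (FPM), with 0.5 FPM added to both sides of the ratio. The grid held 25258 tiles with 15 or more such fragments, called tested tiles below, of which 7.39% passed the fold limit and 23392 did not. The opposite order by 3-fold or more was found at 49 tested tiles. The rule used no tumor counts, so the order of the subsets in the tumor was not fixed by it. Lists and single tiles named below for their tumor ratio are the exception.

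T cells were sorted from AKP tumors, which grow from transplanted mouse intestinal organoids with engineered driver mutations, and from the tumor-free cecum beside them, 4 weeks after transplantation. The organoids were injected under the serosa of the cecum, so the cecum cells also came from tumor-bearing mice. The number of mice behind each library, their strain and their age are not given in the sources used here. Nuclear RNA and open chromatin were read from the same nuclei, with 1 ATAC library per tissue, and the authors named 17 cell types from the RNA. The cecum library held 66466111 fragments and 7155 labelled cells with a median of 4374 fragments each, and the tumor library held 96747563 fragments and 8466 labelled cells with a median of 5846. The Treg labels covered 424 IL-10- and 996 IL-10+ cells in the cecum, with 3000774 and 5709704 fragments, and 737 IL-10- and 387 IL-10+ cells in the tumor, with 5805456 and 2727884 fragments. With 1 library per tissue there was no replicate check and no test was run. Intervals are at 95% and reflect counting error alone. They are exact for a single tile and too narrow for sums over tiles, where a fragment with its ends in 2 tiles counts in both (86198 counts from 77689 fragments in tumor IL-10- Treg).

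An ATAC fragment ends where the transposase could reach the DNA, so a pile of fragments marks open chromatin. Away from gene starts such sites are often enhancers, stretches of DNA that bind transcription factors and act on genes that may lie far away. Treg cells restrain other lymphocytes under the control of Foxp3, and in the gut they divide into a subset induced locally, which tends to hold RORgt and make IL-10, and a subset that tends to hold Helios and GATA3 and to answer the alarm cytokine IL-33. A nearest gene is given below for each tile as a landmark. It was not shown to be the gene that the tile acts on.

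The labels were checked on fragments within 5 kb of marker gene spans. The Il10 span had 153 FPM in cecum IL-10+ Treg against 79.3 FPM in IL-10- Treg, and 146 against 55.1 FPM among tumor cells. Windows of 5 Treg markers summed to 762 and 1028 FPM in cecum IL-10+ and IL-10- Treg and to 753 and 944 FPM in their tumor counterparts, against a range of 378 to 1028 FPM over all labels. This list includes Ikzf2, whose own distal tiles were among those chosen. Windows of 4 Th2 genes summed to 243 FPM in tumor IL-10- Treg, 184 FPM in IL-10+ Treg and 476 FPM in cells labelled Th2. Tumor PD1+ CD4 (292 FPM) and Innate-like T#2 cells (246 FPM) were also above IL-10- Treg at these windows. The Th2 list includes Gata3, the nearest gene with the most chosen tiles. Markers of 10 epithelial genes summed to 160 and 109 FPM in tumor IL-10- and IL-10+ Treg and to 140 and 107 FPM in those of the cecum, inside the range of 85.5 to 224 FPM over all labels and both libraries. B cell windows lay between 204 and 215 FPM and myeloid windows between 168 and 178 FPM in the 4 Treg groups. The part of other cell types in the results below was not tested. Of the labelled barcodes, 84 occurred in both libraries. Without them the rule chose 1867 tiles, of which 843 reached 3-fold in the tumor, close to the counts with them.

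Sequence was at hand only where a tile overlapped the start of a transcript in RefSeq (GRCm38.p6, the build of mm10). Such a start window, 250 bases before and 50 after the start, overlapped 30 of the 1804 tiles on the chromosomes covered (1.66%), against 2128 of 24485 tested tiles (8.69%). Of the 30 tiles, 18 touched starts of long noncoding RNAs and 12 touched starts of protein-coding genes other than the outer gene ends used to place the tiles. Printed below, for 5 of these genes picked after their values were seen, is the part of the 250 bases before the start that lies in chosen tiles: Il9r, Slc25a25, Nr3c2 and Nav2 for their many fragments, and Mctp1 for its lack of fragments in tumor IL-10+ Treg. Capitals mark matches to the letters AGATAA (bound by GATA factors), TGANTCA (AP-1), TGTGGT (RUNX), CTTTGAA (TCF/LEF), AGGAAG (ETS) or AAAGGTCA (NR4A and ROR), searched on both strands, where matches of different kinds may share bases.
Il9r: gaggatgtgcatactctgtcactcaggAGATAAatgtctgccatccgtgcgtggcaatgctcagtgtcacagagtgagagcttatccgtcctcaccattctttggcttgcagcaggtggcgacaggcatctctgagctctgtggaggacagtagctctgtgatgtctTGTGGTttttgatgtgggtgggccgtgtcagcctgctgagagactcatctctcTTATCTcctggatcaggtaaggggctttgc
Mctp1: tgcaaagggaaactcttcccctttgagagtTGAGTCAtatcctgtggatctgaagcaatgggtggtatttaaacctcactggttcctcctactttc
Slc25a25: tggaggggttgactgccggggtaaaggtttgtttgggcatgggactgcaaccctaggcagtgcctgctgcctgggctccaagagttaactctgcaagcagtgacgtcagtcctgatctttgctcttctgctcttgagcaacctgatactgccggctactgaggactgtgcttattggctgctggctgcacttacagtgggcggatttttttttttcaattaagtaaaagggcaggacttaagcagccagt
Nr3c2: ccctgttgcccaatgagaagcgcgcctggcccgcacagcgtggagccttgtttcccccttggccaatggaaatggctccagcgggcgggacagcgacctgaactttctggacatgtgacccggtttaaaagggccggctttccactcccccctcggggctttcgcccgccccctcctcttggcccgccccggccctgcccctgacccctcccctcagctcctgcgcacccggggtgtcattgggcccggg
Nav2: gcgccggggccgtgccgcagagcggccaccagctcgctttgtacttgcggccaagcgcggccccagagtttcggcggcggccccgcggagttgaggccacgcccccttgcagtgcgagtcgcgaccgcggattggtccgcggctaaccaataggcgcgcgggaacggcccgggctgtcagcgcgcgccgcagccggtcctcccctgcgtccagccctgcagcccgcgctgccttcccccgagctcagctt
The Il9r stretch is chr11:32200280-32200529 on the minus strand, Mctp1 is chr13:76579501-76579596 on the plus strand, Slc25a25 is chr2:32424067-32424316 on the minus strand, Nr3c2 is chr8:76902080-76902329 on the plus strand and Nav2 is chr7:49245939-49246188 on the plus strand.

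Il9r encodes the receptor chain for IL-9, Mctp1 a membrane protein with C2 domains, Slc25a25 a mitochondrial carrier, Nr3c2 the mineralocorticoid receptor and Nav2 a protein linked to the cytoskeleton. The tile at the Il9r start held 83 fragments of cecum IL-10- Treg and 13 of cecum IL-10+ Treg, then 113 and 1 in the tumor. The tile at Mctp1 held 24 and 2 in the cecum, then 42 and 0 in the tumor. The tile at Slc25a25 held 63 and 15 in the cecum, then 133 and 8 in the tumor. The tile at Nr3c2 held 164 and 100 in the cecum, then 191 and 39 in the tumor, and that at Nav2 held 61 and 29, then 111 and 22. Per 1000000 fragments, all 5 tiles were higher in IL-10- than in IL-10+ Treg of the tumor, with the smallest ratio at Nr3c2 (32.9 against 14.3 FPM). The Il9r tile was also open in tumor Th2 (36.4 FPM), Th17 (18.4 FPM) and PD1+ CD4 cells (17.9 FPM). Over all 35 start windows that touched a chosen tile, AP-1 letters were found in 10 (28.6%) and GATA letters in 8 (22.9%). Both shares were 7.42% among 1819 windows that touched any tested tile, and they were 7.81% and 11.2% among all 32851 windows. ETS letters were found in 57.1% against 36.0% of the windows at tested tiles, RUNX in 8.57% against 15%, TCF/LEF in 8.57% against 3.68%, and the NR4A and ROR letters in 5.71% against 1.48%. The 35 windows touched 30 tiles, so some lay in the same tile and may share bases, and a match can then count more than once. These letters describe only the few windows that could be read.

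The values used for the choice were as follows. The tiles held 15 to 182 fragments in cecum IL-10- Treg, with a median of 22 (7.33 FPM), and 0 to 103 in IL-10+ Treg, with a median of 7 (1.23 FPM). Their log2 ratio ranged from 1.59 to 4.92 with a median of 2.22. A tile drew its IL-10- Treg fragments from a median of 19 cells (9 to 128), and no cell gave more than 7 of them. The cell that gave most held a median of 9.52% of a tile's fragments, and 35% at the highest. The tile near Cx3cr1 (chr9:120074501-120075000, 104 and 64 fragments) lay just inside the fold limit at 1.59, and tiles in the spans of Ift80 and Hivep2 and near Epgn, each with 25 and 14 fragments, lay just outside at 1.58. Tiles in the spans of Smap1 and Vav2 and a tile in Ikzf2, each with 15 and 7 fragments, met the fragment minimum, and 166 tiles with 14 fragments met the fold limit but not the minimum.

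In the tumor, the tiles were again more open in IL-10- Treg. The median tile held 37 fragments (6.37 FPM) in tumor IL-10- Treg, with a range of 2 to 250, and 5 fragments (1.83 FPM) in IL-10+ Treg, with a range of 0 to 65. The order was the same as in the cecum at 1796 of the 1866 tiles (96.2%), where 52.5% of all tested tiles were higher in IL-10- Treg, and reached 3-fold or more at 851 tiles (45.6%), where the share of all tested tiles was 4.41%. The opposite order by 3-fold or more was seen at 0 of the tiles, where the share of all tested tiles was 0.309%. Among the 23392 tested tiles that were not chosen, 262 (1.12%) were 3-fold or more higher and 78 were 3-fold or more lower. The median tumor log2 ratio was 1.47 (quartiles 0.89 and 2.24, range -1.44 to 4.84) over the chosen tiles and -0.01 over the tested tiles that were not chosen. Summed over the chosen tiles, the tumor log2 ratio was 1.60 (1.58 to 1.63).

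**Figure D1:**
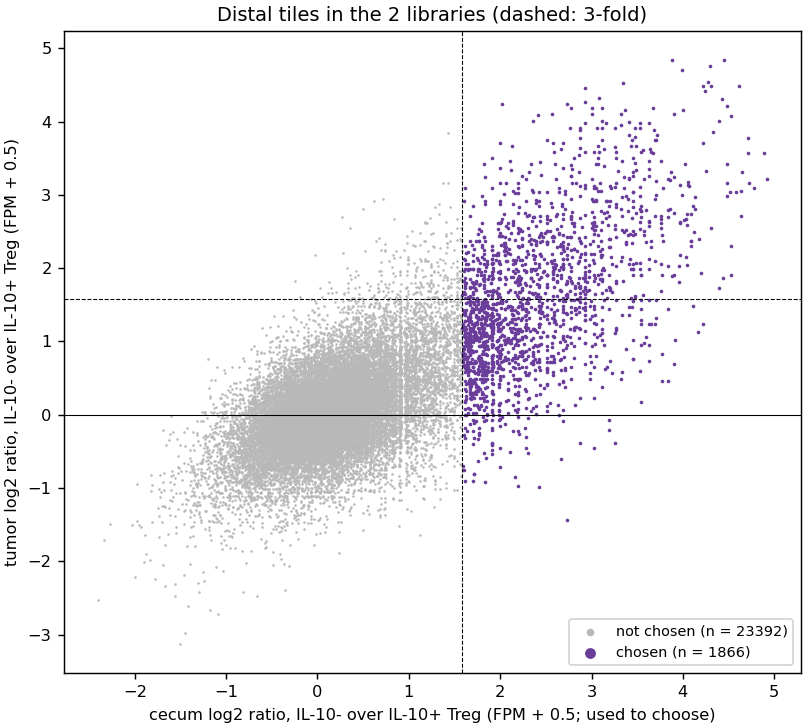
Ratio of the Treg subsets, IL-10- divided by IL-10+, in the cecum (x axis, used to choose) and in the tumor (y axis), each point 1 tested tile and both axes in log2 of FPM plus 0.5. Purple points are the chosen tiles, which lie to the right of the dashed 3-fold limit, and 1796 of the 1866 lie above 0 in the tumor.

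The size of the cecum difference went with the size of the tumor difference. Of 703 tiles with a cecum ratio of 3 to 4, 162 (23.0%) reached 3-fold in the tumor and the median tumor log2 ratio was 1.07. Of 223 tiles with a cecum ratio of 10 or more, 187 (83.9%) reached it and the median was 2.70. The tiles between them, with ratios of 4 to 6 and 6 to 10, reached it in 42.7% and 67.2%. Across the 1866 tiles Pearson's r between the 2 ratios was 0.54 and Spearman's rho 0.50, and over the tested tiles that were not chosen they were 0.52 and 0.47. All tiles share the same libraries and cells, so these are descriptions. Tiles with few tumor fragments reached 3-fold less often. At 20 or more tumor fragments over both subsets, 1565 of 1614 tiles were higher in IL-10- Treg and 772 (47.8%) reached 3-fold, whereas 79 of the 252 shallower tiles (31.3%) did, where the 0.5 FPM added also shrinks a ratio most.

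Cells with many fragments were unevenly spread over the subsets. Cells above 3 times the median of their library made up 17.5% of cecum IL-10- Treg and held 43.4% of that label's fragments, against 11.1% and 33.1% in cecum IL-10+ Treg. In the tumor they were 8.68% of IL-10- and 7.24% of IL-10+ Treg. Without these cells the same rule chose 941 tiles, of which 429 (45.6%) reached 3-fold in the tumor. With the 1866 tiles kept and these cells left out of the measurement, the summed tumor log2 ratio was 1.67.

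The other 15 labels were then read at the same tiles. In both libraries the highest sum after IL-10- Treg was that of the Th2 label, followed by the PD1+ CD4 label. Th2 cells are helper cells that depend on Gata3 and make type 2 cytokines, and the PD1+ CD4 label holds activated CD4 T cells, with 14 cells from the cecum against 616 from the tumor. In the tumor the tiles summed to 14848 FPM in IL-10- Treg, 12613 FPM in Th2, 9954 FPM in PD1+ CD4, 6770 FPM in Innate-like T#2, 6707 FPM in Rorgt gdT and 6108 FPM in Th17 cells. IL-10+ Treg came after these at 4892 FPM, rank 11 of the 17 labels, and the lowest sums were those of the CCR7+ CD8 (4181 FPM) and CCR7+ CD4 (3983 FPM) labels. IL-10- Treg exceeded Th2 by a log2 ratio of 0.24 (0.20 to 0.28) and PD1+ CD4 by 0.58 (0.56 to 0.59). In the cecum, where IL-10- and IL-10+ Treg were set apart by the rule, Th2 cells had 12547 FPM, PD1+ CD4 cells 11398 FPM and the remaining labels between 3766 and 6062 FPM.

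**Figure D2:**
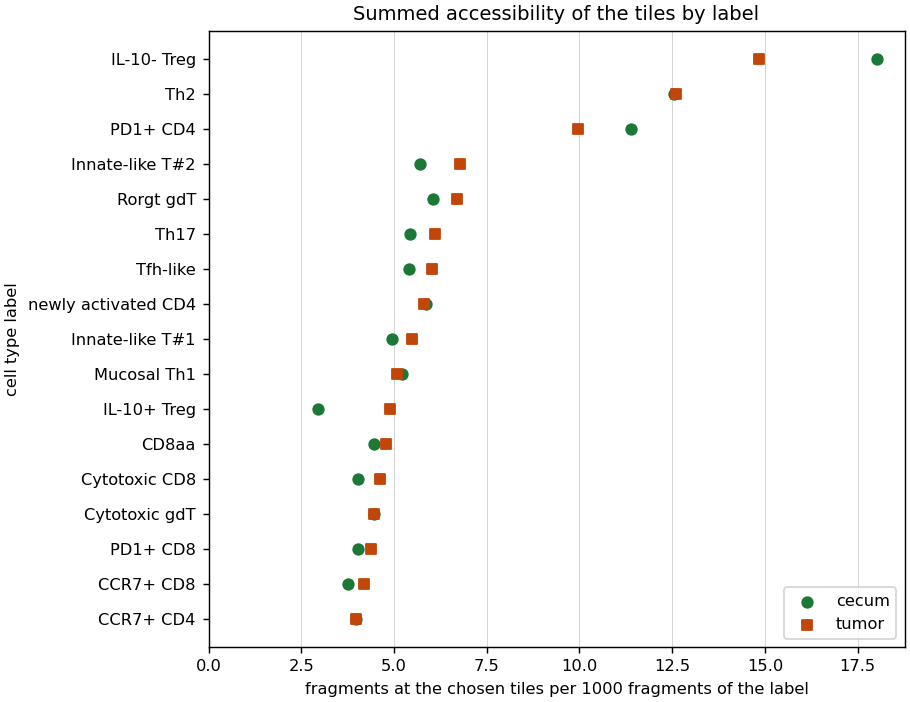
Fragments at the 1866 tiles per 1000 fragments of each label (x axis) for the 17 labels (y axis), with circles for the cecum and squares for the tumor library. In both libraries the IL-10- Treg, Th2 and PD1+ CD4 labels stand highest, in this order.

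Against tumor IL-10+ Treg, the sum was higher in Th2 by a log2 ratio of 1.37 (1.32 to 1.41) and in PD1+ CD4 by 1.02 (1.0 to 1.05), and lower in CCR7+ CD4, a label of recirculating cells, by -0.30 (-0.36 to -0.24). In the cecum, whose IL-10+ Treg had the lowest sum of the 17 labels by the choice of tiles (2964 FPM), CCR7+ CD4 cells were above them, with a log2 ratio of 0.42 (0.38 to 0.47). This order was lost among tiles chosen with at least 30 fragments in cecum IL-10- Treg, where the ratio was 0.05 and its interval held 0 (-0.01 to 0.12). Over the tested tiles that were not chosen, the ratios of all labels over IL-10+ Treg lay between -0.18 and -0.04 in the tumor. In the cecum they ran from -0.32 in CCR7+ CD4 cells to -0.0023 in IL-10- Treg. Tile by tile, Th2 cells were 3-fold or more above IL-10+ Treg at 682 tiles (36.5%, against 5.58% of all tested tiles), and PD1+ CD4 cells at 433 tiles (23.2%, against 3.29%). Innate-like T#2 cells were so at 277 tiles (14.8%, against 3.66%), Rorgt gdT cells at 261 (14%, against 2.5%), Th17 cells at 188 (10.1%, against 1.81%) and CCR7+ CD4 cells at 146 (7.82%, against 3.44%). The tiles had been chosen for a low level in cecum IL-10+ Treg, and in tumor Th2 cells 1 fragment is 2.28 FPM, enough to pass 3-fold over a tile with no fragment, so nothing is read from these shares being above those of all tested tiles. For CCR7+ CD4 cells the share was above it while the sum was below that of IL-10+ Treg.

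The difference was spread over cells. Among tumor cells with 1000 or more fragments, the tiles took a median of 1.36% of a cell's fragments in 670 IL-10- Treg (10th to 90th percentile 0.744% to 2.07%) and 0.397% in 348 IL-10+ Treg (0.207% to 0.697%). The median was 1.19% in 55 Th2 cells, 0.894% in 558 PD1+ CD4 cells, 0.606% in Rorgt gdT cells and 0.361% in CCR7+ CD4 cells. In the cecum, whose counts chose the tiles, the median was 1.62% in 360 IL-10- Treg against 0.239% in 852 IL-10+ Treg. When each cell was thinned to 1000 fragments, 618 tumor IL-10- Treg (92.2%) had a share of 0.6% or more, the 10th percentile of that label, as did 95 of 348 IL-10+ Treg (27.3%), 50 of 55 Th2 cells (90.9%), 449 PD1+ CD4 cells (80.5%) and 25 of 135 CCR7+ CD4 cells (18.5%). At the median share of thinned IL-10- Treg, 1.3%, there were 2 IL-10+ Treg (0.575%). The subsets therefore overlapped at the low end of the IL-10- distribution and hardly at all in its upper part.

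**Figure D3:**
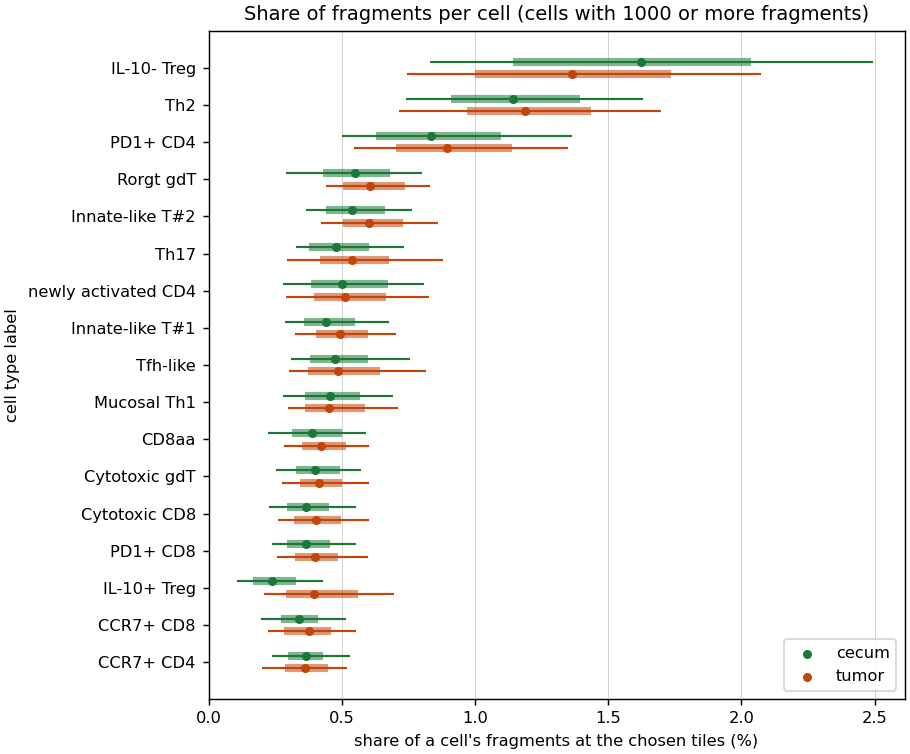
Share of a cell's fragments that fell in the 1866 tiles (x axis, percent) by label (y axis), for cells with 1000 or more fragments. Points are medians, thick lines quartiles and thin lines the 10th to 90th percentile, and tumor IL-10- Treg (median 1.36%) lie to the right of tumor IL-10+ Treg (0.397%).

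Cut sites peaked at the middle of the tiles in every label drawn. In tumor IL-10- Treg the mean signal within 200 bp of the middle was 2.55, against 0.273 at 4000 bp or more from it, a ratio of 9.36. In tumor IL-10+ Treg a smaller peak of 0.826 stood over a flank of 0.220, a ratio of 3.75. Th2 cells had a ratio of 8.47, PD1+ CD4 cells of 6.85, Th17 cells of 4.59 and Cytotoxic CD8 cells of 3.59. At tested tiles that were not chosen, IL-10- and IL-10+ Treg of the tumor had nearly equal ratios of 8.22 and 7.93. Fragments under 150 bp, too short to span a nucleosome with its linkers, were 56.4% (56.1% to 56.8%) of the tumor IL-10- Treg fragments at the tiles and 52.9% (52.0% to 53.8%) of those of IL-10+ Treg, against 54.3% and 54% at tested tiles that were not chosen.

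**Figure D4:**
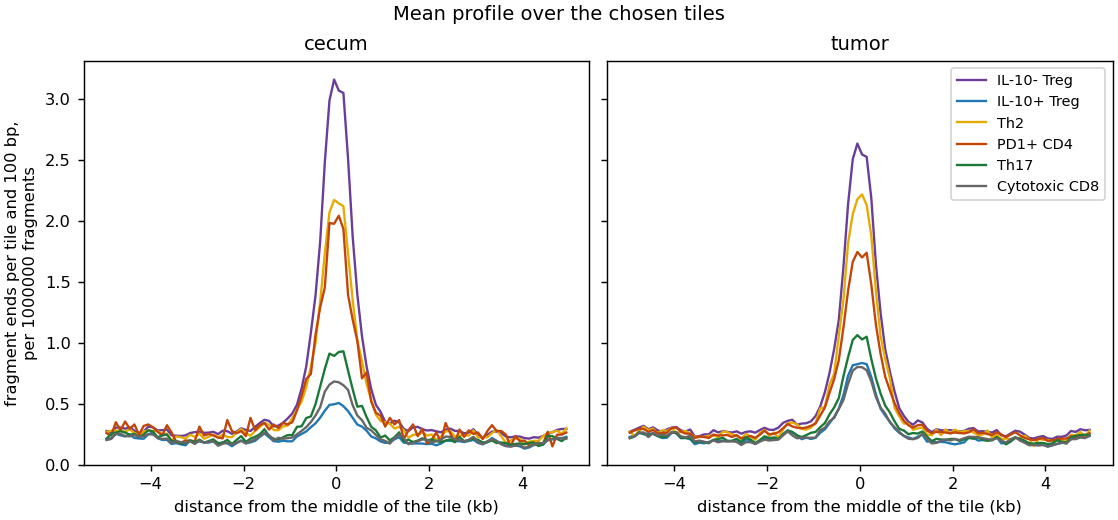
Mean number of fragment ends per chosen tile and 100 bp, per 1000000 fragments of the label (y axis), by distance from the middle of the tile (x axis, kb) for 6 labels in the cecum (left) and the tumor (right). In the tumor the mean within 200 bp is 2.55 for IL-10- Treg and 0.826 for IL-10+ Treg, with Th2 and PD1+ CD4 cells between them.

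Between the tissues, the sum over the tiles was lower in the tumor for IL-10- Treg, with a log2 ratio of tumor over cecum of -0.28 (-0.29 to -0.26), and higher for IL-10+ Treg, with 0.72 (0.69 to 0.76). For IL-10- Treg the tested tiles that were not chosen gave -0.10. The cecum counts chose the tiles, so these shifts are descriptions, and tissue and library cannot be told apart. In bulk sums of this kind fewer open cells and fewer cuts per open cell cannot be told apart either.

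The tiles lay farther from gene ends than other tested tiles. Their middle was a median of 21.1 kb from the nearest end of a protein-coding gene, against 12.5 kb for all tested tiles, 13.5% were outside genes and more than 50 kb away, against 8.43%, and 12 were more than 500 kb away. Of the 1866 tiles, 1030 (55.2%) lay inside the span of a protein-coding gene, against 60.8% of tested tiles. The share of tested tiles that were chosen ran from 4.71% on chromosome 11 to 10.3% on chromosome 1. The gene table held no exons, so exons and introns were not told apart. With gaps of up to 2 kb joined, the tiles formed 1427 runs, of which 1050 were single tiles, 323 held 2 tiles, 47 held 3, 6 held 4 and 1 held 5. The run of 5 tiles was chr6:49586001-49589500, nearest to Stk31, with 207 and 31 fragments in cecum IL-10- and IL-10+ Treg and 349 and 24 in the tumor. A run of 4 near Dgat2 (chr7:99189501-99192000), which makes an enzyme of triglyceride synthesis, held 138 and 4 in the cecum, then 262 and 7 in the tumor. A run of 4 near Tmem45b (chr9:31601001-31603500) held 89 and 0 in the cecum, then 25 and 1 in the tumor. These 2 runs were named after their values had been seen.

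The tiles had 1119 nearest genes, of the 6488 nearest to any tested tile. There were 698 genes with 1 tile, 154 with 3 or more and 31 with 5 or more. Gata3, which encodes the transcription factor GATA3 of Th2 cells and of tissue Treg cells, had the most. Its 23 tiles, of 46 tested there, lay on chr2 between 8870001 and 9868000, 4 of them in the gene span and the others up to 987 kb away. They held 669 and 117 fragments in IL-10- and IL-10+ Treg of the cecum and 1099 and 96 in those of the tumor, which is 189 and 35.2 FPM with a log2 ratio of 2.43 (2.13 to 2.74). In the tumor 16 of the 23 reached 3-fold, and the Th2 label was still higher at 276 FPM, with PD1+ CD4 at 136 FPM and CCR7+ CD4 at 21.9 FPM. The Gata3 tile with the most cecum fragments, chr2:9368001-9368500, lay 489 kb from the span and held 76 and 4 fragments in the cecum, then 182 and 3 in the tumor. Another, chr2:9155501-9156000 and 701 kb away, held 48 and 2 in the cecum, then 65 and 0 in the tumor, at least 10.2-fold higher in IL-10- Treg against a floor of 3 counts. This floor, used below for every count of 0, is a one-sided limit, and the lower end of the interval of the log2 ratio, 3.01 here, lies somewhat lower.

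Ikzf2, which encodes Helios, had 12 tiles of 28 tested between chr1:69542501 and chr1:69693000, 10 of them inside the gene. They held 267 and 66 fragments in the cecum, then 369 and 35 in the tumor (63.6 and 12.8 FPM, log2 ratio 2.31, 1.81 to 2.85), and 10 of the 12 reached 3-fold in the tumor. Unlike the Gata3 tiles, they were nearly as open in tumor Innate-like T#2 (57.7 FPM) and CD8aa cells (54.9 FPM), while Th2 cells had 38.7 FPM and CCR7+ CD4 cells 5.48 FPM. The tile with the most cecum fragments, chr1:69692001-69692500, held 59 and 12 in the cecum, then 67 and 8 in the tumor.

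Rora, which encodes a nuclear receptor of type 2, type 17 and tissue lymphocytes, had 11 tiles of 50 tested, all inside the gene. They held 543 and 220 fragments in the cecum, then 872 and 169 in the tumor (150 and 62.0 FPM, log2 ratio 1.28, 1.04 to 1.52), with 182 FPM in Th2 cells. The leading Rora tile, chr9:69340001-69340500, held 87 and 27 in the cecum, then 147 and 21 in the tumor. Tox encodes a chromatin factor of chronically stimulated T cells. It had 10 tiles with 315 and 131 fragments in the cecum, then 409 and 57 in the tumor, and a log2 ratio of 1.75 (1.35 to 2.18). The leading one, chr4:6975501-6976000, had 95 and 43 in the cecum against 132 and 7 in the tumor.

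Of the other genes with the most tiles, Epas1 encodes the oxygen-sensing factor HIF-2alpha. It had 9 tiles of 10 tested, with 697 and 100 tumor fragments and a log2 ratio of 1.71 (1.41 to 2.03). Its leading tile, chr17:86710001-86710500, lay 43.4 kb from the gene and held 85 and 24 fragments in the cecum, then 175 and 19 in the tumor. Nav2, whose sequence before a start is printed above, had 11 tiles with 375 and 51 tumor fragments (log2 ratio 1.79, 1.36 to 2.24). Its leading tile at chr7:49246001-49246500 held 61 and 29 fragments in the cecum, then 111 and 22 in the tumor. Mgat5, an enzyme that branches N-glycans, had 9 tiles with 490 and 71 (1.70, 1.34 to 2.08), and its leading tile, chr1:127242001-127242500, held 111 and 65 in the cecum, then 156 and 48 in the tumor. Mical3, an enzyme that acts on actin, had 8 tiles with 598 and 108 (1.38, 1.08 to 1.69). The Mical3 tiles were nearly as open in CCR7+ CD4 cells (91.8 FPM) as in IL-10- Treg (103 FPM), and its leading tile, chr6:121110001-121110500, held 53 and 30 in the cecum, then 162 and 30 in the tumor. The 7 tiles nearest to 1700056E22Rik held 480 and 49 tumor fragments (2.20, 1.78 to 2.66), 131 and 60 in the cecum, then 202 and 18 in the tumor at the leading tile, chr1:183987501-183988000. Trpm1 encodes a cation channel best known from pigment cells and the retina. All 7 tested tiles there were chosen, with 209 and 18 fragments in the cecum, then 303 and 15 in the tumor (3.25, 2.50 to 4.10), and the leading tile, chr7:64250001-64250500, held 66 and 3 in the cecum, then 80 and 0 in the tumor, at least 12.5-fold higher in IL-10- Treg at the floor (lower end of the log2 interval 3.32). In FPM, tumor Th2 cells exceeded IL-10- Treg at the tiles of 1700056E22Rik (173 against 82.7) and Epas1 (169 against 120). Th2 cells were also higher at Trpm1 (84.3 against 52.2) and Nav2 (79.7 against 64.6). They were nearly equal to IL-10- Treg at Mgat5 (84.3 against 84.4) and lower at Mical3 (38.7 against 103).

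**Figure D5:**
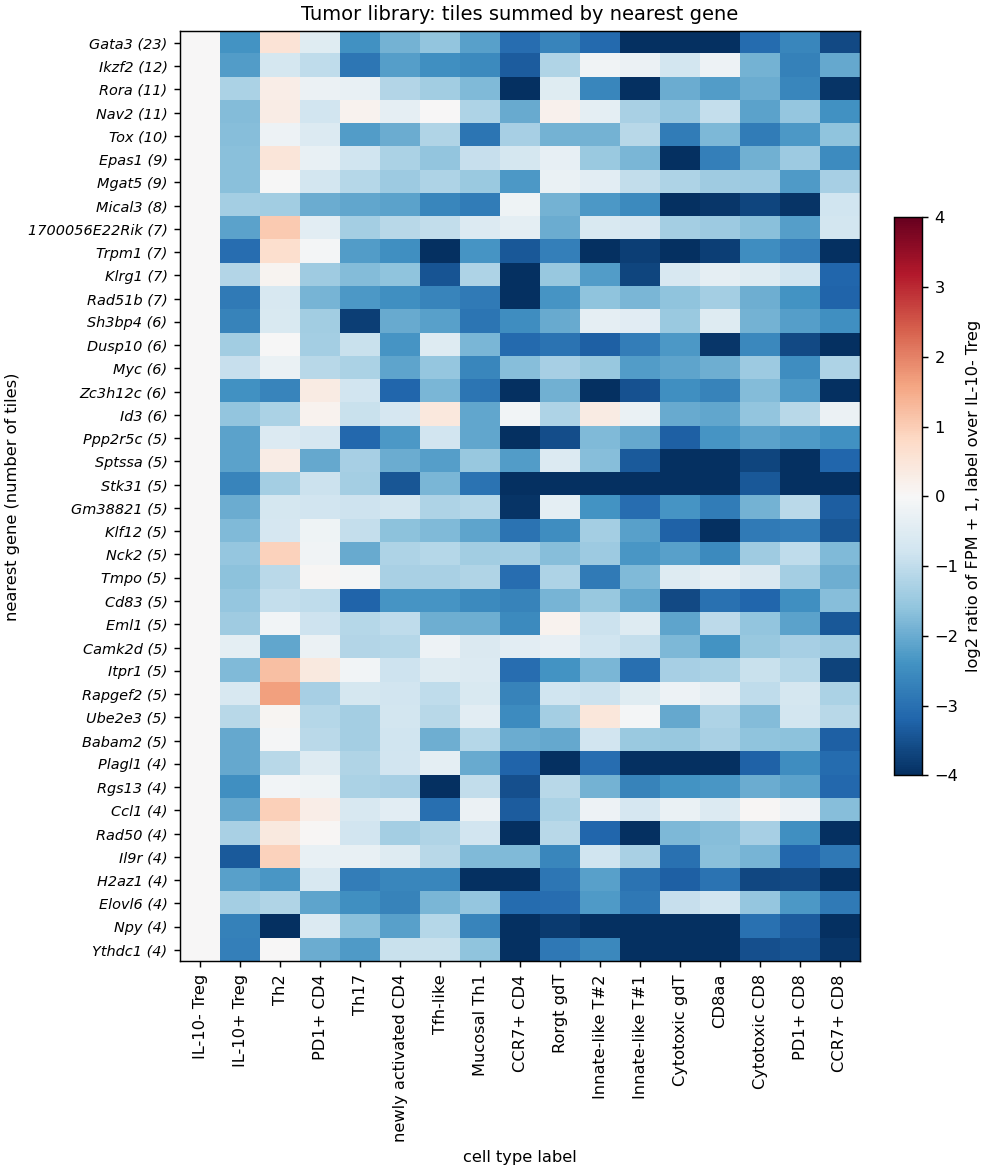
Tumor accessibility of the tiles summed by nearest gene (y axis, the 40 genes with the most tiles, their number in brackets) in each label (x axis), as the log2 ratio of FPM plus 1 over IL-10- Treg, with colors limited to 4 on either side. Blue cells are below IL-10- Treg and red cells above, as for Gata3 in Th2 cells (276 against 189 FPM), and the IL-10+ Treg column is blue throughout.

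Over all features, 17.2% of nearest genes had a chosen tile, 7.39% of tested tiles were chosen, and 45.6% of chosen tiles reached 3-fold in the tumor. A gene with more tested tiles has more chances to hold a chosen one. Of 12 naive and circulation genes 4 had a tile, though only 5.5% of their tested tiles were chosen. Nothing is therefore read from counts of genes against the 17.2%. All lists were chosen with earlier results of these data known, so the shares below are descriptions. Of 12 genes of type 2 and tissue repair responses, 9 had a tile, with 55 of their 163 tested tiles (33.7%), and 33 of the 55 reached 3-fold in the tumor, with a median log2 ratio of 1.85 against 1.47 over all chosen tiles. Gata3 held 23 of the 55 and Rora, which the type 17 list holds too, 11. Gata3, Klrg1, Il1rl1 and Areg were also named by the study for IL-10- Treg from RNA of these cells, so this list is not independent. Il1rl1, the IL-33 receptor ST2, had 4 tiles with 82 and 6 fragments in the cecum, then 136 and 4 in the tumor (23.4 and 1.47 FPM, log2 ratio 4.00, 2.61 to 5.89). Th2 cells had 29.6 FPM at these tiles, PD1+ CD4 cells 4.23 FPM and CD8aa cells 0.289 FPM. All 4 tested tiles of Il9r were chosen, and all 4 reached 3-fold in the tumor, with 173 and 36 fragments in the cecum, then 228 and 8 in the tumor (39.3 and 2.93 FPM, log2 ratio 3.74, 2.74 to 4.97) and 75.2 FPM in Th2 cells. Areg, the growth factor amphiregulin, had 2 tiles with 129 and 26 tumor fragments (1.22, 0.60 to 1.89). Klrg1, an inhibitory lectin receptor, had 7 tiles with 283 and 57 (1.22, 0.81 to 1.66). Pparg, a lipid-sensing nuclear receptor, had 1 tile with 37 and 4 (2.12, 0.64 to 4.07), and Nfil3, a transcription factor, had 2 tiles with 92 and 9 (2.26, 1.28 to 3.44). At Ccr8, a chemokine receptor of tissue Treg cells, the single tile was higher in cecum IL-10- Treg (35 and 19 fragments) but not in the tumor, with 33 and 17 fragments and a log2 ratio of -0.13 (-1.02 to 0.80).

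Core Treg genes were divided. Of 13 genes, 5 had a tile (Ikzf2, Ikzf4, Tnfrsf18, Lrrc32 and Nrp1), with 25 of 112 tested tiles (22.3%), of which 18 reached 3-fold in the tumor, with a median log2 ratio of 1.81 and with 12 of the 25 at Ikzf2. No tile was nearest to Il2ra or Ctla4, and Foxp3 lies outside the chromosomes used. Lrrc32, which holds latent TGF-beta at the cell surface, had 4 tiles with 103 and 25 fragments in the cecum, then 153 and 11 in the tumor (2.71, 1.83 to 3.74). Every other label with 50 or more cells had at most 0.153 times the tumor IL-10- Treg level there. Nrp1, a receptor for semaphorins, had 4 tiles with 163 and 21 tumor fragments (1.87, 1.21 to 2.60) and Ikzf4, which encodes Eos, 4 tiles with 129 and 17 (1.83, 1.10 to 2.66). The single tile at Tnfrsf18, the receptor GITR, held 88 and 49 in the cecum, then 182 and 56 in the tumor, a smaller ratio of 0.61 (0.17 to 1.07).

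The genes that the study named for its IL-10- Treg modules had tiles at 7 of 9 (52 of 131 tested tiles, 39.7%), of which 34 reached 3-fold in the tumor, and those it named for IL-10+ Treg at 2 of 8 (3 of 69, 4.35%), where 7.39% of all tested tiles were chosen. These lists came from RNA of the same cells and are not independent. In the first list Gata3 held 23 of the 52 tiles and Ikzf2 12. Its tiles at Gata3, Klrg1, Il1rl1 and Areg were already counted in the type 2 list, and those at Ikzf2 among core Treg genes. Besides the genes above, the first list had Itgb8, which helps to activate TGF-beta, with 145 and 16 tumor fragments at 2 tiles (2.09, 1.34 to 2.94), and Il10ra, a chain of the IL-10 receptor, with 31 and 2 at 2 tiles (2.86, 0.89 to 5.97). No fragment of the 58 tumor or 90 cecum Th2 cells was counted at the Itgb8 tiles. In the second list, Maf had 2 tiles with 16 and 0 tumor fragments and Gzmb 1 tile with 22 and 4.

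Genes that respond to the antigen receptor had tiles at 6 of 14, with 24 of 211 tested tiles (11.4%, against 7.39% of all tested tiles), and 8 of the 24 reached 3-fold in the tumor, with a median log2 ratio of 1.32, below that of all chosen tiles. Tox, described above, held 10 of the 24, out of 29 tested tiles there. Nr4a2, a nuclear receptor induced by stimulation, had 3 tiles with 119 and 64 fragments in the cecum, then 262 and 33 in the tumor (1.90, 1.37 to 2.47). Many labels exceeded tumor IL-10- Treg (45.1 FPM) there, such as CD8aa (85.8 FPM), Cytotoxic gdT (82.8 FPM), Innate-like T#1 (80.7 FPM) and Th2 cells (70.6 FPM). Others were below, such as Th17 (29.9 FPM) and CCR7+ CD4 cells (27.4 FPM). Pdcd1, which encodes PD-1, had 2 tiles with 190 and 22 tumor fragments (2.02, 1.38 to 2.73) and 49.2 FPM in PD1+ CD4 cells. Myc, a growth regulator, had 6 tiles with 194 and 47 (0.96, 0.49 to 1.45). Icos had 33 and 4 at 2 tiles and Egr2 12 and 0 at 1 tile.

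Naive and circulation genes had 11 of 200 tested tiles (5.5%, against 7.39% of all tested tiles), at S1pr1, Satb1, Id3 and Ets1, and 4 of the 11 reached 3-fold in the tumor. Id3, an inhibitor of E proteins, had 6 of these tiles with 264 and 40 tumor fragments (1.63, 1.15 to 2.15). Tumor Tfh-like (60.6 FPM), Innate-like T#2 (57.0 FPM) and PD1+ CD4 cells (50.6 FPM) were above IL-10- Treg (45.5 FPM) at the Id3 tiles, and the remaining labels were below. The single Ets1 tile, of 63 tested there, held 14 and 5 tumor fragments, too few to read an order (0.40, -1.16 to 2.22). Type 17 genes had 14 of 79 (17.7%), 11 of them at Rora, 2 at Maf and 1 at Ahr, and 7 of the 14 reached 3-fold. Type 1 and cytotoxic genes had 6 of 48 (12.5%), at Ifng, Gzmb and Ccl5, and 2 of the 6 reached 3-fold. The chemokine gene Ccl5 had 3 of them with 199 and 26 tumor fragments (1.85, 1.25 to 2.50). Many labels were above tumor IL-10- Treg (34.3 FPM) at the Ccl5 tiles, such as Innate-like T#2 (55.7 FPM), Th2 (54.7 FPM) and Cytotoxic CD8 cells (50.3 FPM). Others were below, such as Rorgt gdT (27.3 FPM) and Th17 cells (23.1 FPM).

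Some tiles lay at genes better known outside the immune system. Of 5 such genes, Ednrb and Prox1 had no tested tile. All 5 tested tiles nearest to the other genes, Dipk1c, Macc1 and Barx2, were chosen, and all 5 reached 3-fold in the tumor. These genes had been picked for being open in IL-10- Treg of these libraries, so their counts are no independent evidence. Macc1, a gene linked to metastasis, had 2 tiles with 66 and 3 fragments in the cecum, then 106 and 1 in the tumor (5.64, 3.13 to 11.0), and no fragment in Th2 cells of either library. Dipk1c had 2 tiles with 93 and 6 in the cecum, then 117 and 0 in the tumor, and Barx2, a homeobox gene, 1 tile with 38 and 0 in the cecum, then 37 and 0 in the tumor, at least 5.8-fold higher in IL-10- Treg at the floor (lower end of the log2 interval 2.16).

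Among single tiles, the most cecum fragments were found near Mrps28, a mitochondrial ribosomal protein (chr3:8766501-8767000, 182 and 103 in the cecum, then 182 and 40 in the tumor), and at Nr3c2 (chr8:76902001-76902500, 164 and 100, then 191 and 39). Both kept the order in the tumor at a log2 ratio of 1.07 and 1.17 with 0.5 FPM added. The next were the leading 1700056E22Rik tile, a second Mrps28 tile (chr3:8767001-8767500, 127 and 74, then 141 and 33) and a tile 51.9 kb from Pgm2, an enzyme of sugar metabolism (chr5:64040501-64041000, 127 and 70, then 250 and 38). With 0.5 FPM added, the highest tumor ratios were those of tiles with no fragment at all in tumor IL-10+ Treg, an order that depends on the value added. Besides the Trpm1 and Gata3 tiles above, these were Arsg, a lysosomal sulfatase (chr11:109546001-109546500, 80 and 0, at least 12.5-fold), Dipk1c (76 and 0, at least 11.9-fold) and Dgat2 (chr7:99191501-99192000, 73 and 0, at least 11.4-fold). A count of 0 does not show closed chromatin at this depth.

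Among the 154 genes with 3 or more tiles, the tumor sum was highest in IL-10- Treg at 67 (43.5%), in Th2 at 46 (29.9%), in PD1+ CD4 at 14 (9.09%) and in IL-10+ Treg at 0, counting labels with 50 or more cells. Over 2812 genes with 3 or more tested tiles that were not chosen, the shares were 5.65%, 12.6%, 4.84% and 10.6%. Tfh-like and CCR7+ CD4 cells, which like Th2 cells have few fragments in the tumor, led there at 12.3% and 11.6%. In such labels a few fragments can decide which label is highest. At 13 of the 154 genes every other label stayed at or below 0.5 times the tumor IL-10- Treg level, against 0 of 2812. The 154 genes were summed over tiles that passed the rule and the 2812 over tiles that failed it. Nothing is therefore read from the differences between these sets. At 11 of the 13 genes every other label also stayed this low in the cecum, whose counts chose the tiles. These were Abhd6, Abra, Adgrb1, Adgrl2, Atg10, Chd2, Gad1, Lrrc32, Mylk4, Sh3rf1 and Smarcd3, named after their values had been seen. Gad1, an enzyme that makes the transmitter GABA, had 4 tiles with 55.8 FPM in tumor IL-10- Treg, 11.4 FPM in IL-10+ Treg and 21.4 FPM in Tfh-like cells, the next label. The other pattern, tiles shared with another label, is seen at Npy and Zc3h12c, also chosen after their values were seen. The 4 tiles nearest to Npy, which encodes neuropeptide Y, had 52.9 FPM in tumor IL-10- Treg, 35.5 FPM in PD1+ CD4, 7.33 FPM in IL-10+ Treg and no fragment in the 58 tumor Th2 cells, where 1 fragment is 2.28 FPM. Cecum Th2 cells had 8.79 FPM at the same tiles. The 6 tiles nearest to Zc3h12c, an RNA-binding protein gene, had 47.4 FPM in IL-10- Treg, 59.6 FPM in PD1+ CD4 and 6.83 FPM in Th2 cells. Among genes led by Th2 cells, chosen after their values were seen, the 4 tiles nearest to Ccl1, a chemokine that binds CCR8, had 98.0 FPM in Th2 cells, 50.5 FPM in IL-10- Treg and 11.4 FPM in IL-10+ Treg, and the 5 tiles in Itpr1, a calcium release channel, had 95.7, 41.0 and 11.4 FPM in the same order. The 5 tiles in Rapgef2 had 72.9 FPM in Th2 cells, 22.9 FPM in IL-10- Treg and 14.3 FPM in IL-10+ Treg, with a log2 ratio of 0.68 (0.16 to 1.23) between the Treg subsets. Tumor PD1+ CD4 cells were also above IL-10- Treg at Ccl1 (60.7 FPM) and Itpr1 (54.2 FPM), as were Cytotoxic CD8 cells at Ccl1 (51.7 FPM). The remaining labels were below it at both genes. In the cecum, Th2 cells stood above IL-10- Treg at Ccl1 and Itpr1 but not at Rapgef2 (33.4 against 42.3 FPM). At Camk2d, a calcium-dependent kinase chosen in the same way, the interval of the tumor ratio held 0, with 131 and 46 fragments at 5 tiles and 0.42 (-0.07 to 0.94).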

How the data were processed

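Nuclei of T cells from AKP tumor and adjacent cecum were profiled by the authors with a multiome assay. The deposited ATAC files hold raw counts: a line gives 1 deduplicated fragment and its barcode, made by the authors with Cell Ranger ARC 2.0.0 on mm10, not normalized. A deposited annotation gives the authors' label for each cell, made from RNA clusters after quality filters. Doublets were not called here, and the sources used here do not say whether the authors removed them. RNA libraries were not analysed here.

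Each fragment was counted once in every 500-bp tile that held one of its ends, so that a fragment can count in 2 tiles, and the counts of a label's cells were added up and scaled to FPM by that label's fragments on chromosomes 1 to 19, X and Y. Ratios of tiles had 0.5 FPM added, which understates the change of tiles with few fragments. Sums and named tiles were compared by the ratio of their raw counts, with exact conditional (Clopper-Pearson) intervals and a floor of 3 counts per label for a count of 0. Positions are 1-based. Spans of 21887 protein-coding genes were read from RefSeq (GRCm38.p6, a table without strand or exons), and start sequences, which do not cover chromosome 18, from a second such table. The motif search planned in the tiles was left out for want of a genome sequence.

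The tiles, the gene lists and the naming rule were chosen with earlier results of these data known. The rule names the 10 nearest genes with the most tiles and their leading tile, the 5 tiles with the most cecum fragments, the 5 highest and 5 lowest tumor ratios with 20 or more tumor fragments, the leading tile at each gene of the lists, and the tiles beside each limit. Genes and tiles outside it were chosen after their values were seen. Having 1 library per tissue, the data allowed no test. The alternatives changed the pseudocount, fragment minimum, fold limit, distance to genes, tile grid, way of counting, scaling and cells. Python 3.11.15, numpy 2.4.6, pandas 2.3.3, scipy 1.17.1 and matplotlib 3.10.9 were used. The counting and the choice of tiles were tested on simulated data.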

Additional observations from a re-analysis of the deposited data

Results flagged for a closer look

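Among the tiles with 20 or more tumor fragments, the 5 with the lowest tumor ratio had the opposite order of the Treg subsets in the 2 tissues. All were higher in IL-10- Treg of the cecum, which is what chose them, and lower in IL-10- Treg of the tumor. The difference between the tissues was not tested. The tile in C2cd2 (chr16:97869501-97870000) held 30 and 14 fragments in cecum IL-10- and IL-10+ Treg and 20 and 19 in the tumor, with log2 ratios after adding 0.5 FPM of 1.83 and -0.92. The tile near Ipmk (chr10:71399001-71399500), an inositol phosphate kinase, held 43 and 23, then 29 and 25, with 1.71 and -0.81. The intervals of their tumor ratios made from the counts ended just below 0 (-2.0 to -0.03 and -1.70 to -0.04), and the other 3 held 0. The 5 tiles are the lowest of 1614, so single intervals that narrowly miss 0 set none of them apart. The 3 others were the tiles near Ppp2r5a (chr1:191426001-191426500), a phosphatase subunit, with 16 and 8, then 10 and 10 fragments and log2 ratios of 1.62 and -0.91, in Ptk2b (chr14:66242501-66243000), a tyrosine kinase, with 17 and 8, then 10 and 10 and ratios of 1.70 and -0.91, and in Gdpd5 (chr7:99433001-99433500), with 19 and 9, then 17 and 15 and ratios of 1.72 and -0.81.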

How the results depend on the processing

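Of 7 results, 11 alternatives and 2 alternatives chosen after seeing the data gave 90 values. In 50 the result stayed within its interval as reported or, for numbers of tiles, within 1.5 times, and in 40 it moved further. The interval of the median was taken over tiles as if they were separate draws, and the intervals of sums are too narrow. This split is therefore a rough guide. No ratio changed sign, which says little where the choice of tiles bears on the sign, as for tumor over cecum. The number of tiles, the tiles at the fold limit in the tumor, the median and the summed tumor log2 ratio, the Th2 and the CCR7+ CD4 log2 ratio over IL-10+ Treg and the tumor over cecum log2 ratio of IL-10- Treg are given in this order. At a 2-fold limit they were 3668, 1868, 1.01, 1.08, 0.84, -0.19 and -0.26. At a 5-fold limit they were 839, 344, 2.05, 2.26, 1.99, -0.45 and -0.32. With 2 FPM added they were 919, 343, 1.36, 1.95, 1.71, -0.53 and -0.31. With 0.1 FPM added, the summed, Th2 and CCR7+ CD4 ratios were 1.49, 1.26 and -0.23. At a minimum of 30 fragments there were 604 tiles, 302 at the fold limit, a median of 1.59, and Th2 and CCR7+ CD4 ratios of 1.31 and -0.54. The cecum CCR7+ CD4 ratio over IL-10+ Treg fell from 0.42 to 0.05 (-0.01 to 0.12) at that minimum and was 0.27 at the 2-fold limit. With scaling by fragments within 1 kb of gene ends, the Th2 and CCR7+ CD4 ratios were 1.29 and -0.37. When cells above 3 times their library's median fragments were dropped, there were 941 tiles and 429 at the fold limit, with summed, Th2 and tumor over cecum ratios of 1.53, 1.25 and -0.33. Those cells also hold many fragments, and the tiles that reached the fragment minimum without them were not counted. With the tiles kept and these cells left out only of the measurement, an alternative chosen after seeing the data, the median, summed, Th2 and tumor over cecum ratios were 1.57, 1.67, 1.44 and -0.26. The cause of the shifts was not tested.

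No paired analysis was possible because each tissue had 1 library. The depth limits single tiles: the median tile held 5 fragments in tumor IL-10+ Treg, and intervals leave out variation between animals and cells. The PD1+ CD4 label had 14 cells in the cecum.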
